A study of Mus musculus with 14 samples.

Results

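The genes described here are 10 components of the circadian clock, Arntl, Clock, Per1, Per2, Per3, Ciart, Nr1d1, Nr1d2, Dbp and Tef, in mouse kidney. They were chosen by name, as the rows of these genes in each of the 14 deposited expression files, and make up 10 of the 21878 genes listed. All 10 passed the filter on low values and were among the 14912 genes tested. The study asked what loss of complement factor B (Cfb), a protease of the alternative complement pathway, does to the kidney in diabetes. Kidney RNA of 14 male C57BL/6J mice was sequenced, 1 library per mouse. Diabetes was induced with a high-fat diet (60% of calories from fat) for 4 weeks and streptozotocin, a toxin of the pancreatic beta cell, at 60 mg/kg on 5 consecutive days, each after a fast. Control mice ate chow (10% of calories from fat) and were injected with the citrate vehicle. The groups were WT control (n = 3), WT diabetic (n = 4), Cfb-/- control (n = 3) and Cfb-/- diabetic (n = 4) mice. The Cfb-/- mice were knockouts, although the genotype label reads knockdown. All mice had a 12-hour light and dark cycle and the time label of 34 weeks. The hour of the day at which each mouse was killed was not given in the sources used here, so a difference between groups in that hour and an effect of diabetes or genotype on a clock gene cannot be told apart.

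The molecular clock is a transcriptional loop that runs in almost every cell. BMAL1, the product of Arntl, pairs with CLOCK and binds E-box elements, where it activates the Per and Cry genes, Nr1d1, Nr1d2, Dbp and Ciart. PER and CRY proteins then repress BMAL1 and CLOCK, CIART (also called CHRONO) is a further repressor of the pair, and the nuclear receptors REV-ERBα (Nr1d1) and REV-ERBβ (Nr1d2) repress Arntl, Npas2, Cry1 and Nfil3 through ROR response elements. DBP and TEF carry the rhythm to output genes through D-box elements, on which NFIL3 acts in the opposite sense. In the kidney the clock is known to time sodium transport, filtration and blood pressure. As a result Arntl and Dbp normally peak at nearly opposite times of day, and a set of clock genes read in a single tissue sample depends on the hour of sampling.

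The promoters were searched for the elements named above, and 3 of those with matches are printed. RefSeq start sites of GRCm38.p6 were found for 9 of the 10 genes, with 14 start sites in all, and the 250 bases before each were searched on both strands. The search covered the E-box CACGTG, D-boxes (TTATGTAA, TTATGCAA or TTACGTAA) and ROR elements (TAGGTCA or TGGGTCA). The sequences below run 5′ to 3′ on the strand of the gene, stop where an annotated exon begins, and have the matched elements in capitals. Per1 (GeneID 18626) had 1 E-box and 1 D-box before its first start site on chromosome 11, at chr11:69098699-69098947 on the plus strand, Per3 (GeneID 18628) had 2 D-boxes at chr4:151044708-151044915 on the minus strand, and Ciart (GeneID 229599) had 3 E-boxes at chr3:95882258-95882478 on the minus strand.
Per1: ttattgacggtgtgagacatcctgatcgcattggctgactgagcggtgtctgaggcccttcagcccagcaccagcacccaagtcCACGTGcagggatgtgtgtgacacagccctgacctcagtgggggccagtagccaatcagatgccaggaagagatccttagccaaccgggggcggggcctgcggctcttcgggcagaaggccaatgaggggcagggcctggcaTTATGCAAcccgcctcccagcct
Per3: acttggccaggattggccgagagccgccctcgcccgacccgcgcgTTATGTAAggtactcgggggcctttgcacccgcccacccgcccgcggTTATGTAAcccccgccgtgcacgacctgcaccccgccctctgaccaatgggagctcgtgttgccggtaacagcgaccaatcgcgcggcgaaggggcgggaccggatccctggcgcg
Ciart: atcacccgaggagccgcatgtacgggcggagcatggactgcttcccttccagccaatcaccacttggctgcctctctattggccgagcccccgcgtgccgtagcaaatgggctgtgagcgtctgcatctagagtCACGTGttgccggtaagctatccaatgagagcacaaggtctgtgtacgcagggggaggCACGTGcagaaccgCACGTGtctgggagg

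Among all 32851 RefSeq start sites, 6.02% had this E-box in the same 250 bases, 1.61% had a D-box and 5.38% had a ROR element. Both start sites of Tef (GeneID 21685, chromosome 15) had 1 E-box each. Arntl (GeneID 11865, chromosome 7) had none of the elements before its start sites, and 1 ROR element lay just after the second of them, at chr7:113207530-113207554 on the plus strand, printed with its element in capitals.
Arntl: aaggcagaaagTAGGTCAgggacgg
No element matched in the windows of Clock (GeneID 12753, chromosome 5), Dbp (GeneID 13170, chromosome 7), Nr1d1 (GeneID 217166, chromosome 11) or Nr1d2 (GeneID 353187, chromosome 14). Per2 (GeneID 18627) is on chromosome 1. These matches describe letters in a short window and do not show binding.

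Levels are given as FPKM, fragment counts scaled by transcript length and by the mapped fragments of the library, which sets genes of different length on 1 scale. The read depth behind the values is unknown, and the FPKM of a mouse summed over all genes ranged from 330246 to 488196. Cfb itself was 62.2 to 131 FPKM in WT control, 56.7 to 81.9 in WT diabetic, 2.05 to 2.22 in Cfb-/- control and 1.13 to 1.43 in Cfb-/- diabetic mice, so the libraries matched their genotype labels. The 9 kidney markers listed, among them Umod and Slc34a1, were detected in every group, with a summed level of 2723 to 3805 FPKM in the control mice and 2021 to 2817 in the diabetic mice. With diabetes 2 of the 9 were called higher and 3 lower in WT mice and 1 higher and 4 lower in Cfb-/- mice, and the proximal tubule transporter genes Slc34a1 (log2 fold changes -1.34 and -1.29), Slc5a2 (-2.99 and -2.0) and Slc5a12 (-2.36 and -1.84) were called lower in both. The summed level of 3 macrophage markers was 9.45 to 22.0 FPKM in the control mice and 27.0 to 39.7 in the diabetic mice (3 of 3 called higher in WT and 2 of 3 in Cfb-/- mice), and in whole tissue fewer cells of a type and less RNA per cell cannot be told apart. Of 14912 genes tested, 36.2% were called higher and 9.97% lower in diabetic than in control WT mice, and 27.4% higher and 6.4% lower in Cfb-/- mice. The whole table was thus shifted upward with diabetes, by a median of 0.29 (WT) and 0.22 (Cfb-/-) on the log2 scale, and a clock gene that kept pace with it stood near these values and not at 0. After median-ratio scaling, which removes the shift, 22.7% were called higher and 22.4% lower in WT mice and 18.5% and 14.1% in Cfb-/- mice.

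Over all mice Tef was the most abundant of the 10 genes, with a mean of the 4 group means of 24.2 FPKM. It lay above every other gene of the 10 in all 14 mice. Nr1d2 (11.3 FPKM) and Nr1d1 (9.57 FPKM) followed. Nr1d2 exceeded Nr1d1 in 12 of 14 mice, and Nr1d1 exceeded Clock (6.02 FPKM) in 9 of 14, so the order of these 3 genes was not the same in every mouse. Dbp (4.01 FPKM), Per2 (3.61 FPKM), Per1 (3.53 FPKM) and Arntl (2.99 FPKM) lay close together and changed places between mice. Per3 (1.14 FPKM) was below Arntl in 13 of 14 mice, and Ciart (0.258 FPKM) was the lowest of the 10 in all 14.

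**Figure D1:**
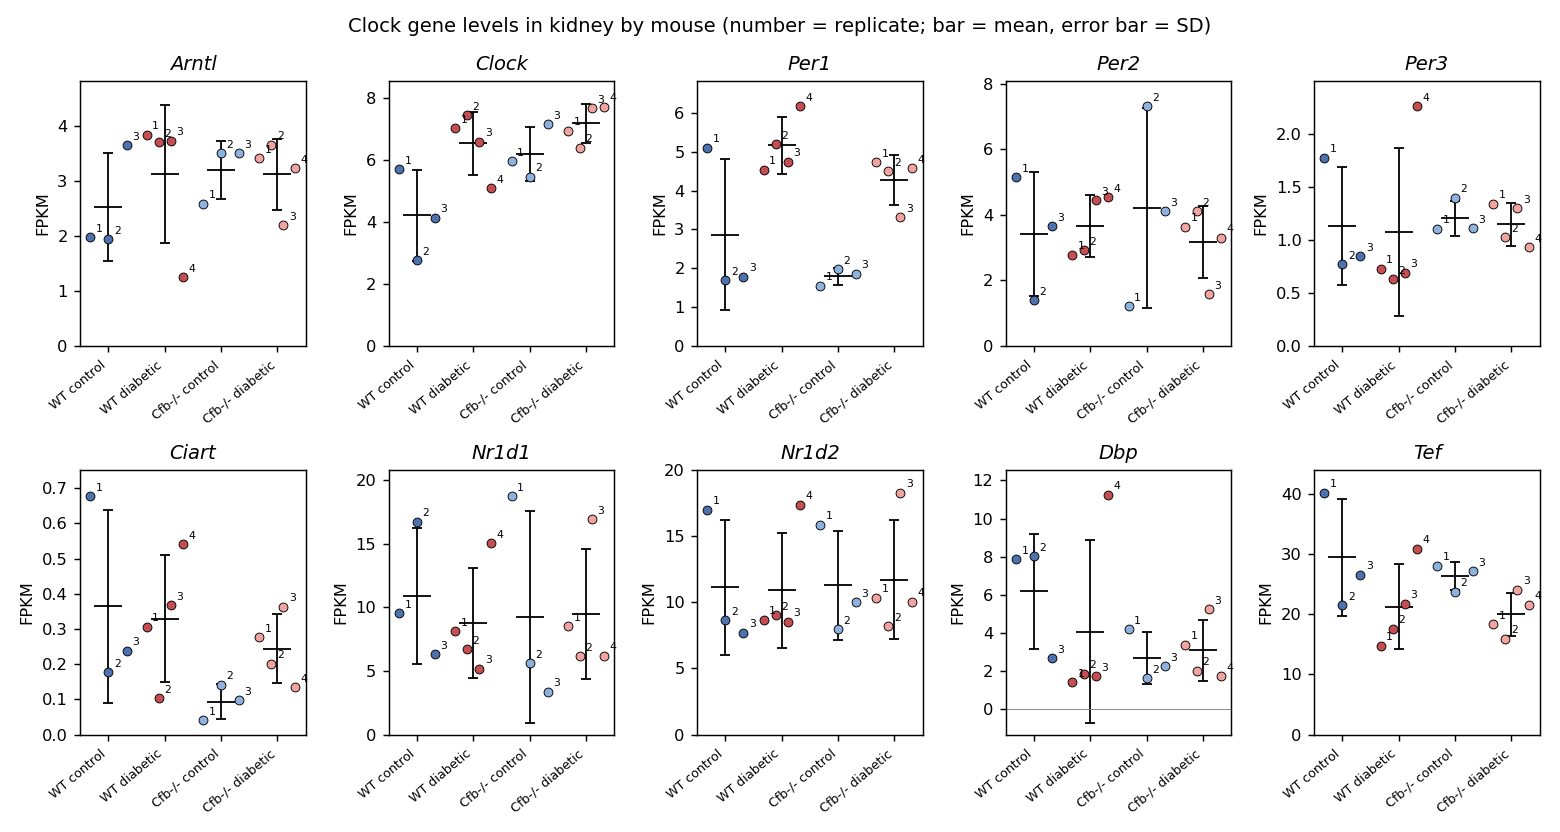
FPKM (linear axis from 0) of each of the 10 clock genes in each mouse, by group, with the replicate number beside each point, the group mean as a bar and the SD as the error bar. Per1 of Cfb-/- control mice (1.55 to 1.97) lies below that of all diabetic mice (3.32 to 6.17), while Dbp, Nr1d1 and Nr1d2 each have 1 or more high mice in every group.

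Diabetic kidneys were compared with control kidneys within each genotype to see which clock genes differed with diabetes. Per1, a repressor of the loop that also responds quickly to hormones, was higher in diabetic mice of both genotypes, and Clock was higher in diabetic WT mice. These were 2 of 10 clock genes higher and 0 lower in WT mice (36.2% and 9.97% of all genes), and 1 of 10 higher and 0 lower in Cfb-/- mice (27.4% and 6.4% of all genes). Neither count is above its background. Of the 10 genes, 2 in WT and 3 in Cfb-/- mice had a log2 fold change above the median of all genes, and the 10 genes had a median of -0.04 (WT) and 0.11 (Cfb-/-).

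Per1 was 5.11, 1.69 and 1.79 FPKM in the WT control mice and 4.54, 5.20, 4.75 and 6.17 FPKM in the WT diabetic mice. It was 1.55, 1.97 and 1.86 FPKM in the Cfb-/- control mice and 4.73, 4.51, 3.32 and 4.57 FPKM in the Cfb-/- diabetic mice. In Cfb-/- mice every diabetic value lay above every control value, and in WT mice the groups overlapped because WT control mouse 1 was within the diabetic range. The log2 fold change was 1.20 (SE 0.29) in Cfb-/- mice, with an adjusted p of 0.00532 in limma, and 1.01 (SE 0.29) in WT mice, with an adjusted p of 0.0121. Relative to the median of all genes the change was 0.98 and 0.72. With diabetes and control labels permuted within genotype, the exact test over both genotypes together (1225 assignments) gave a two-sided unadjusted p of 0.00245 for Per1. In each genotype alone the exact permutation p was 0.171 in WT and 0.0571 in Cfb-/- mice, the latter the smallest that the group sizes allow. Leaving out WT control mouse 2 or mouse 3 ended the WT call (adjusted p in limma 0.0782 and 0.063), and leaving out WT control mouse 1 moved the WT log2 fold change to 1.51 (adjusted p 5.8e-05). Quantile normalization also ended the WT call (log2 fold change 0.57, adjusted p 0.0949) and left the Cfb-/- call (0.77, adjusted p 0.0363).

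WT control mouse 1 stood apart from the other WT control mice in a second respect. Its Fkbp5, a gene induced by glucocorticoids, was 37.5 FPKM against 15.0 and 18.8 FPKM in the other WT control mice, and Zbtb16, another such gene, was 2.80 FPKM against 0.328 and 0.396. The summed level of the 6 glucocorticoid-induced genes listed was 145 to 322 FPKM in WT control, 172 to 228 in WT diabetic, 160 to 241 in Cfb-/- control and 122 to 171 in Cfb-/- diabetic mice. In control mice this sum rested mostly on Errfi1, with means of 140 (WT) and 126 FPKM (Cfb-/-), so it does not stand for the 6 genes alike. Of these 6 genes, Sgk1, a kinase of sodium transport that hormones induce, was called higher in diabetic mice of both genotypes, with log2 fold changes of 1.86 (SE 0.26) in WT and 1.73 (SE 0.26) in Cfb-/- mice, and Errfi1, a feedback inhibitor of the EGF receptor, was called lower in both, by log2 fold changes of -1.30 (SE 0.23) and -1.38 (SE 0.23). The other 4 were not called in either genotype. Of all genes, 36.2% were called higher and 9.97% lower in WT mice, and 27.4% and 6.4% in Cfb-/- mice. Of 8 immediate early genes, 3 were called higher in WT mice (Fos, Jun and Atf3) and 1 in Cfb-/- mice (Atf3). These counts were near or below the shares of all genes called higher. The Fos call was lost without WT diabetic mouse 2, WT diabetic mouse 4 or WT control mouse 3, and the Jun call without any 1 of 5 of the 7 WT mice (all but WT diabetic mouse 3 and WT control mouse 1). The summed level of the 8 immediate early genes was 27.5 to 35.4 FPKM in WT control, 54.4 to 67.1 in WT diabetic, 23.6 to 208 in Cfb-/- control and 63.1 to 140 in Cfb-/- diabetic mice. The part of these genes, or of what moves them, in the Per1 difference was not tested.

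Clock, which encodes the partner of BMAL1, was 5.70, 2.77 and 4.14 FPKM in WT control and 7.02, 7.44, 6.58 and 5.09 FPKM in WT diabetic mice. It was 5.95, 5.45 and 7.14 FPKM in Cfb-/- control and 6.93, 6.39, 7.65 and 7.71 FPKM in Cfb-/- diabetic mice. The groups overlapped in both genotypes, and WT control mouse 2 was the lowest of all 14. The log2 fold change was 0.67 (SE 0.20, adjusted p 0.0148 in limma) in WT and 0.22 (SE 0.20, adjusted p 0.429) in Cfb-/- mice. The exact permutation test over both genotypes together, permuted within each, gave an unadjusted two-sided p of 0.0122 on the deposited scale. In each genotype alone the exact permutation p was 0.114 in WT and 0.171 in Cfb-/- mice. The WT call was lost after median-ratio scaling (log2 fold change 0.39, adjusted p 0.0904), after quantile normalization (0.31, adjusted p 0.179) and without WT control mouse 2 (0.40, adjusted p 0.091). In Cfb-/- mice the change relative to the median of all genes was -0.0042 and the fold change turned to -0.02 after median-ratio scaling.

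Tef, an activator of D-box genes, lay on the other side of the median of all genes. It was 40.2, 21.5 and 26.6 FPKM in WT control, 14.8, 17.6, 21.7 and 30.9 in WT diabetic, 28.0, 23.7 and 27.1 in Cfb-/- control, and 18.3, 15.9, 24.1 and 21.6 in Cfb-/- diabetic mice. The groups overlapped in both genotypes. The log2 fold change was -0.47 (SE 0.24, adjusted p 0.114 in limma) in WT and -0.41 (SE 0.24, adjusted p 0.203) in Cfb-/- mice, neither of which passed the test. Relative to the median of all genes these were -0.76 and -0.63, and after median-ratio scaling Tef was called lower in both genotypes (log2 fold changes -0.76 and -0.65, adjusted p 0.0157 and 0.0408), while quantile normalization left both uncalled. The exact permutation test over both genotypes together, permuted within each on the deposited scale, gave an unadjusted two-sided p of 0.0351. In each genotype alone the exact permutation p was 0.286 in WT and 0.114 in Cfb-/- mice.

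Dbp, a D-box activator known for a wide daily swing, rested on 1 mouse in the WT comparison. It was 7.86, 8.02 and 2.69 FPKM in WT control and 1.42, 1.87, 1.73 and 11.3 FPKM in WT diabetic mice. WT diabetic mouse 4 was the highest of all 14 mice, and the other 3 WT diabetic mice lay below every WT control mouse. The log2 fold change in WT mice was -1.01 (SE 0.63) with an adjusted p of 0.198 in limma, and without WT diabetic mouse 4 it was -1.68 with an adjusted p of 0.0117. When that mouse was left out, 4 of the 10 clock genes were called in WT mice, Dbp and Tef lower and Clock and Per1 higher, where 32.2% of all genes were called higher and 9.92% lower. WT diabetic mouse 4 was singled out here by its own Dbp value. Neither the p nor the count without it is therefore a test of a difference with diabetes. In Cfb-/- mice Dbp was 4.20, 1.62 and 2.26 FPKM in the control and 3.39, 2.04, 5.25 and 1.72 FPKM in the diabetic group, with a log2 fold change of 0.17 (SE 0.63, adjusted p 0.859) that turned to -0.07 after median-ratio scaling.

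The remaining 6 genes were not called in either genotype. Arntl averaged 2.52 ± 0.976 FPKM (SD, n = 3) in WT control, 3.13 ± 1.26 (n = 4) in WT diabetic, 3.20 ± 0.532 (n = 3) in Cfb-/- control and 3.12 ± 0.644 (n = 4) in Cfb-/- diabetic mice. Its log2 fold change with diabetes was 0.24 (SE 0.34) in WT and -0.04 (SE 0.34) in Cfb-/- mice. Per2, a repressor like Per1, averaged 3.40 ± 1.89 and 3.67 ± 0.945 FPKM in WT control and diabetic mice and 4.21 ± 3.05 and 3.16 ± 1.10 FPKM in Cfb-/- control and diabetic mice. Unlike Per1, its control values spanned the diabetic ones on both sides, from 1.21 to 7.31 FPKM in Cfb-/- mice alone. Per3, the third period gene, averaged 1.13 ± 0.56 and 1.08 ± 0.789 FPKM in WT and 1.20 ± 0.167 and 1.15 ± 0.202 FPKM in Cfb-/- control and diabetic mice. The fold changes of Per2 (SE 0.52) and Per3 (SE 0.36) lay between -0.17 and 0.25 on the log2 scale. A difference of the size seen for Per1 could have been missed for Per2.

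The REV-ERB genes had similar means in all groups and a wide spread inside each. Nr1d1 averaged 10.9 ± 5.33 and 8.76 ± 4.35 FPKM in WT control and diabetic mice and 9.23 ± 8.31 and 9.44 ± 5.11 FPKM in Cfb-/- control and diabetic mice. Nr1d2 averaged 11.1 ± 5.11, 10.9 ± 4.32, 11.3 ± 4.10 and 11.7 ± 4.47 FPKM in the same order. The standard errors of their log2 fold changes were 0.53 and 0.34, so a difference of the size seen for Per1 could have been missed for Nr1d1. Ciart was 0.177 to 0.678 FPKM in WT control, 0.104 to 0.541 in WT diabetic, 0.0411 to 0.142 in Cfb-/- control and 0.134 to 0.364 in Cfb-/- diabetic mice, and its log2 fold change with diabetes was -0.07 (SE 0.41) in WT and 0.82 (SE 0.41, adjusted p 0.141 in limma) in Cfb-/- mice. At these levels the pseudocount of 0.1 sets much of its fold change.

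**Figure D2:**
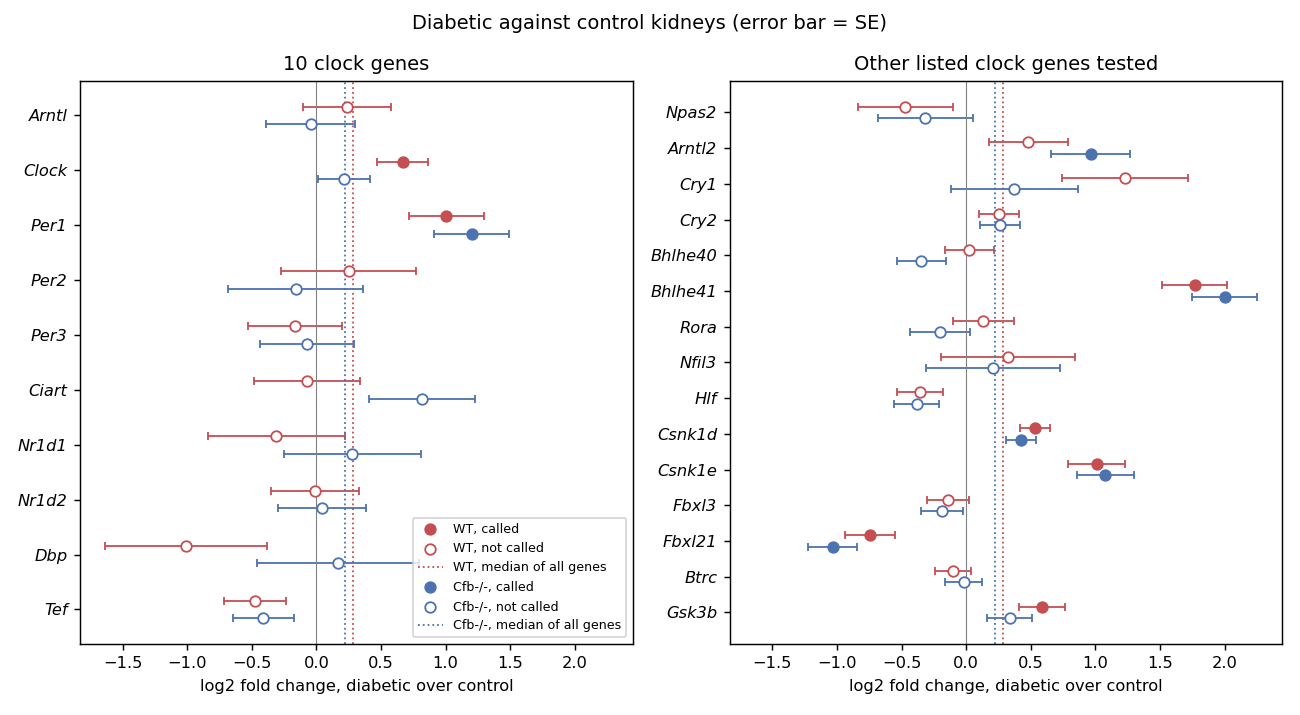
Log2 fold change of diabetic over control mice on the log2(FPKM + 0.1) scale for the 10 clock genes (left) and 15 other clock genes (right), in WT (red) and Cfb-/- (blue) mice, with the SE as error bars, filled points for genes called at an adjusted p below 0.05 and dotted lines at the median of all genes. Per1 is filled in both genotypes (1.01 and 1.20) and Dbp has the widest error bars (SE 0.63).

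Among the other clock genes listed, 15 of 16 were tested, and 4 were called higher and 1 lower in each genotype. Their median log2 fold change was 0.25 in WT and 0.21 in Cfb-/- mice, below the medians of all genes. The background over every gene tested was 36.2% higher and 9.97% lower with WT diabetes, and 27.4% and 6.4% with Cfb-/- diabetes. The counts of 4 and 1 among 15 thus lay near or below this background. Bhlhe41, a repressor that competes for E-boxes, was 0.186 to 0.277 FPKM in WT control, 0.816 to 1.19 in WT diabetic, 0.120 to 0.276 in Cfb-/- control and 0.847 to 1.49 in Cfb-/- diabetic mice, without overlap, and had log2 fold changes of 1.77 (SE 0.25) and 2.0 (SE 0.25) in WT and Cfb-/- mice. The kinase genes Csnk1e and Csnk1d, whose products mark PER proteins for degradation, were called higher in both genotypes, Csnk1e by log2 fold changes of 1.01 (SE 0.22) and 1.08 (SE 0.22) and Csnk1d by 0.53 (SE 0.12) and 0.42 (SE 0.12). Csnk1e lost its WT call after quantile normalization (adjusted p 0.0559 in limma), and Csnk1d lost its Cfb-/- call after median-ratio scaling (adjusted p 0.136) and without Cfb-/- control mouse 2 (adjusted p 0.069). Fbxl21, which encodes a ubiquitin ligase subunit that acts on CRY proteins, was called lower in both, by log2 fold changes of -0.74 (SE 0.19) and -1.03 (SE 0.19), at levels of 0.140 to 0.632 FPKM. Gsk3b was called higher in WT mice only and Arntl2 in Cfb-/- mice only, and neither difference between genotypes passed the interaction test. The Gsk3b call was lost without WT control mouse 2 (adjusted p 0.0926 in limma), and the Arntl2 call was lost on leaving out any 1 mouse of its comparison other than Cfb-/- diabetic mouse 4 (adjusted p up to 0.081). Of 8 output genes listed, Por, the electron donor of cytochrome P450 enzymes, was called lower in both genotypes (log2 fold changes -0.51 and -0.50, SE 0.13 each), and Wee1 and Nampt were called higher in WT mice. Both of those calls were lost without WT control mouse 2 (adjusted p 0.14 and 0.0629 in limma), and that of Wee1 also without WT control mouse 3 or WT diabetic mouse 4 (adjusted p 0.0673 and 0.0611).

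Cfb-/- mice were compared with WT mice, among diabetic and among control mice, to see whether the deletion went with a change in the clock. None of the 10 clock genes was called in diabetic mice or in control mice. Across all 14912 genes 0% were called higher and 0.00671% (1 gene, Cfb) lower in either comparison, with 448 genes in diabetic and 2614 in control mice at an unadjusted p under 0.05. In diabetic mice the log2 fold changes of the 10 genes lay between -0.27 (SE 0.27, Per1) and 0.26 (SE 0.34, Per3), and 0 of 10 had an unadjusted p under 0.05. In control mice they lay between -1.14 (SE 0.44, Ciart) and 0.59 (SE 0.21, Clock), and these 2 genes had an unadjusted p under 0.05 (adjusted p 0.25 and 0.249 in limma). Ciart was 0.678, 0.177 and 0.238 FPKM in WT control and 0.0411, 0.142 and 0.0975 FPKM in Cfb-/- control mice, so these groups did not overlap. Its exact permutation p was 0.1, the smallest that 3 against 3 mice allow. Clock was called higher in Cfb-/- control mice (log2 fold change 0.84, adjusted p 0.03 in limma) only when WT control mouse 1 was left out, and without that mouse 1711 of all genes were called in place of 1. These comparisons and the diabetes comparisons share their groups, so their values are not independent.

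The interaction of genotype and diabetes asked whether diabetes moved a gene differently in the 2 genotypes. None of the 10 clock genes and 0% of all genes were called in either direction, with 861 of 14912 genes and 0 of the 10 clock genes at an unadjusted p under 0.05. The interaction of Clock was -0.45 (SE 0.28) and that of Dbp 1.18 (SE 0.89) on the log2 scale, the ends of the range over the 10 genes. The difference between the WT and Cfb-/- results for Clock did not pass the test (adjusted p 0.779 in limma).

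Most of these genes spread widely between mice of 1 group. The SD within groups on the log2 scale was 0.97 for Dbp, 0.82 for Nr1d1, 0.80 for Per2, 0.60 for Ciart, 0.54 for Per3, 0.52 for Nr1d2 and 0.51 for Arntl, each larger than that of at least 91.8% of the genes tested (99% for Dbp). Per1 (0.43), Tef (0.36) and Clock (0.29) varied less, and exceeded 86%, 77.1% and 61.6% of the genes tested. WT diabetic mouse 4 lay farther from its group mean than any other mouse for Arntl (-1.14), Per3 (1.20) and Dbp (2.01). The SDs include this mouse and were not computed without it.

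The mice that were high in Dbp were low in Arntl. Ordered from the highest Dbp, the first 5 mice were WT diabetic mouse 4 (11.3 FPKM), WT control mice 2 and 1 (8.02 and 7.86), Cfb-/- diabetic mouse 3 (5.25) and Cfb-/- control mouse 1 (4.20). Ordered from the lowest Arntl, the first 5 were the same mice in the same order, at 1.25, 1.94, 1.98, 2.20 and 2.58 FPKM. These 5 mice had a Dbp to Arntl ratio above 1 (9.02, 4.13, 3.97, 2.39 and 1.63), and the other 9 mice had ratios of 0.371 to 0.993. Every one of the 4 groups held at least 1 mouse of the first kind, with 2 of 3 WT control mice, 1 of 4 WT diabetic mice, 1 of 3 Cfb-/- control mice and 1 of 4 Cfb-/- diabetic mice.

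**Figure D3:**
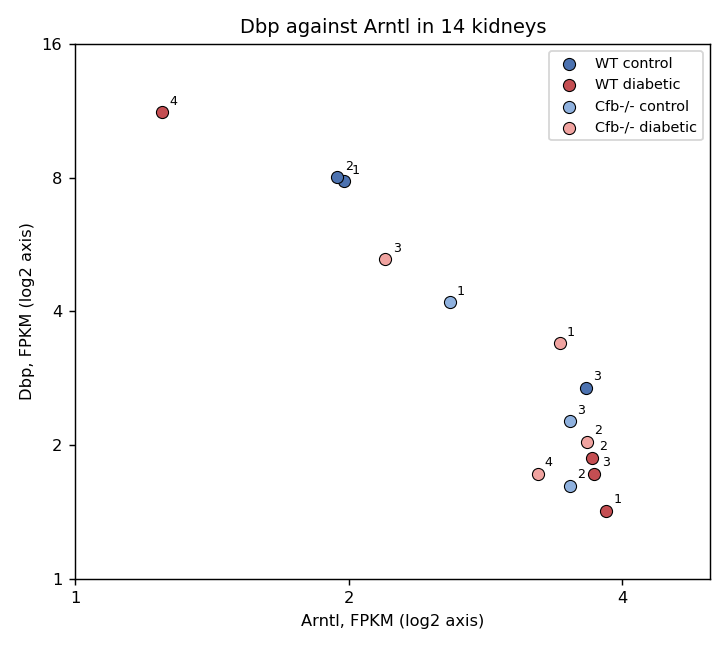
FPKM of Dbp (vertical, log2 axis) against FPKM of Arntl (horizontal, log2 axis) in the 14 mice, coloured by group, with the replicate number beside each point. The mice run from high Dbp and low Arntl (WT diabetic mouse 4, 11.3 and 1.25 FPKM) to low Dbp and high Arntl (WT diabetic mouse 1, 1.42 and 3.84 FPKM), and every group has a mouse toward the upper left.

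With the group means removed, Pearson's r between Dbp and Arntl was -0.96 over 14 mice, and -0.89 without the 2 mice farthest from the median Dbp. Dbp went with Nr1d2 (r = 0.83), Nr1d1 (0.76), Per3 (0.74) and Tef (0.64), and less with Ciart (0.43). It went hardly with Per1 (0.20), Per2 (-0.28) or Clock (-0.31). Without the same 2 mice the values for Nr1d2 and Nr1d1 were 0.72 and 0.69. Those for Per3, Tef and Ciart were 0.44, 0.32 and 0.12. Per1 was closest to Per3 and Per2 (r = 0.62 with each), and Per2 ran against Nr1d1 (-0.69). These values describe 14 libraries whose depth is unknown and carry no test.

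Of the 15 other clock genes tested, 3 ran against Dbp in the same mice. Among 11387 genes with a mean of at least 1 FPKM, the 10 clock genes left out, ranked by their r with Dbp, Cry1 was the 5th lowest (-0.84), Nfil3 the 9th lowest (-0.82) and Npas2 the 27th lowest (-0.76). Without the same 2 mice as above their r was -0.76, -0.71 and -0.61. The other 12 had an r of -0.17 (Bhlhe40) to 0.35 (Arntl2). Cry1, Nfil3 and Npas2 are, like Arntl, known targets of the REV-ERBs. In WT diabetic mouse 4, for example, Cry1 was 2.40 FPKM against 4.91 to 7.31 in the other WT diabetic mice, Nfil3 was 1.43 against 4.94 to 5.03 and Npas2 was 1.18 against 3.07 to 3.86. Cfb-/- diabetic mouse 3 had the lowest Cry1 (1.47 FPKM against 4.20 to 5.78) and Nfil3 (2.77 against 4.02 to 5.22) of its group, while its Npas2 of 2.98 FPKM lay within the range of the others. Lonrf3, one of the output genes listed, was the 6th lowest (-0.83), and the other 7 output genes lay between -0.05 and 0.42.

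Outside the 10 clock genes, the 8 genes whose deviations were most like those of Dbp were Lyrm2 (r = 0.94), Plin5 (0.90), Aldh1b1 (0.88), Gla (0.86), Tctex1d2 (0.86), Rfc5 (0.84), Strada (0.84) and Ttr (0.84). The 8 most opposed, Arntl (-0.96) again left out, were Adpgk (-0.92), Nolc1 (-0.90), Fbxo46 (-0.90), Paqr3 (-0.86), Cry1 (-0.84), Lonrf3 (-0.83), Ubfd1 (-0.82) and 1700017B05Rik (-0.82). These ranks carry no test and include WT diabetic mouse 4, whose Dbp lay 2.01 above its group mean on the log2 scale. Without the mice farthest from the median Dbp, r was -0.76 for Cry1 and -0.68 for Lonrf3. It was not computed in that way for the other genes named here.

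**Figure D4:**
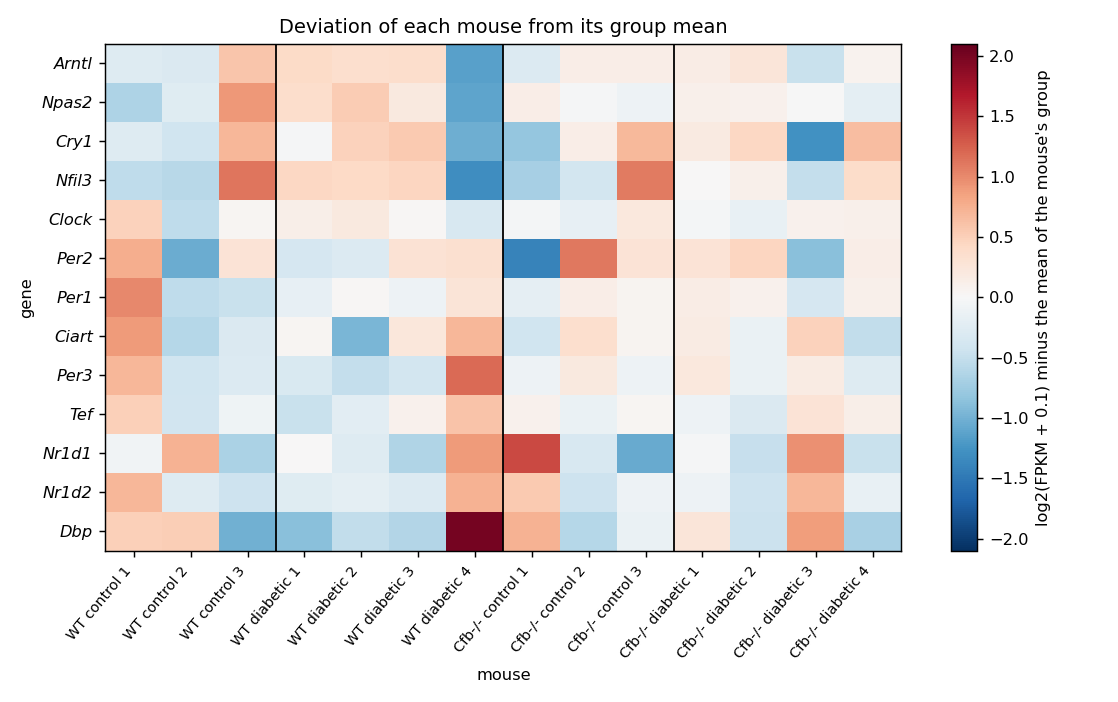
Log2(FPKM + 0.1) of each mouse minus the mean of its group (colour) for the 10 clock genes and Npas2, Cry1 and Nfil3 (rows) in the 14 mice (columns, groups divided by black lines). WT diabetic mouse 4 is low for Arntl, Npas2, Cry1 and Nfil3 and high for Nr1d1, Nr1d2 and Dbp, and WT control mouse 3 is the reverse.

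Per1 and Per2 did not follow Dbp in several mice. WT control mouse 2 had high Dbp and low Arntl but a Per1 of 1.69 and a Per2 of 1.40 FPKM, while WT control mouse 1, with the same Dbp and Arntl, had 5.11 and 5.15 FPKM. Cfb-/- control mouse 2 had the highest Per2 of all mice (7.31 FPKM) with a Dbp of 1.62 FPKM. The summed level of 5 temperature-responsive genes, heat shock genes among them, was 57.7 to 353 FPKM in Cfb-/- control mice and 53.3 to 103 FPKM in the other groups, and its part in the Per2 values was not tested. Of these 5 genes only Rbm3, a cold-inducible RNA-binding protein, was called with diabetes, higher in both genotypes (log2 fold changes 0.78 and 0.79, SE 0.15 each). Of all genes, 36.2% were called higher in WT and 27.4% in Cfb-/- mice.

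Markers of other tissue differed between groups as well. The summed level of 5 urothelial markers was 0.279 to 0.610 FPKM in WT control, 0.690 to 45.7 in WT diabetic, 0.607 to 8.77 in Cfb-/- control and 1.22 to 3.09 in Cfb-/- diabetic mice, and that of 3 adipocyte markers reached 5.10 FPKM in WT diabetic and 3.37 FPKM in Cfb-/- control mice but 0.0692 FPKM in WT control and 0.386 FPKM in Cfb-/- diabetic mice. Plin1, which coats fat droplets, was listed at 0 in all WT control and all Cfb-/- diabetic mice. All 5 urothelial and all 3 adipocyte markers were called higher in diabetic WT mice (36.2% of all genes) and none in diabetic Cfb-/- mice (27.4% of all genes). Adrenal markers, which would come with tissue next to the kidney, summed to 0.0741 to 0.250 FPKM in the control and 0.185 to 0.332 FPKM in the diabetic mice, and Cyp11a1 and Cyp11b1 were at 0 in each WT control mouse. The 3 lymphocyte markers summed to 0.578 to 1.10 FPKM in the control and 0.777 to 2.84 FPKM in the diabetic mice. Among them Cd3e was called higher in both genotypes (log2 fold changes 1.20 and 1.29) and Ms4a1 in WT mice (1.73). The part of other tissue, macrophages and lymphocytes included, in the Per1 and Clock differences was not tested.

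Neighbouring genes could share reads with 2 of the clock genes. The exons of Dbp share 539 bases (18% of its exonic bases) with Sphk2, and those of Nr1d1 share 263 bases (8.55%) with Thra, each on the opposite strand. The libraries were stranded, and whether the counting used strand was not given in the sources used here. Sphk2 varied 1.55-fold between the lowest and highest mouse and Thra 1.83-fold, against 7.90-fold for Dbp and 5.58-fold for Nr1d1, and the r within groups was 0.52 for Dbp with Sphk2 and 0.17 for Nr1d1 with Thra.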

How the data were processed

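RNA-seq of kidney from 14 mice was analysed from the FPKM values the authors deposited, 1 file per mouse, with no counts. The submitters' processing notes name Trimmomatic, HISAT2, Cufflinks, HTSeq, DESeq and the build GRCm38.p6, without order. FPKM divides by mapped fragments and transcript length, so a shift of abundant genes moves all others, and no depth could be recovered. Genes with at least 0.1 FPKM in at least 3 samples were kept (14912 of 21878), and log2(FPKM + 0.1) was fitted in limma 3.58.1 (R 4.3.3) with the trend option, group means and all 14 mice. A fold change on this scale understates that of low genes. Genes with a Benjamini-Hochberg adjusted p below 0.05 over all genes tested were called. The fit was tested on simulated data. P-values measure the spread between mice. Single genes were tested by exact permutation of mice (scipy 1.17.1), also within genotype. No p adjusted over a list alone is given. Named genes were the 10 clock genes, listed other clock, output, glucocorticoid-induced, immediate early and temperature-responsive genes, and the 8 highest and 8 lowest r with Dbp. The clock genes and lists were chosen with earlier results of these data known. From each of 2 lists (other clock genes and kidney markers), 1 gene is not reported here and was left out of that list's counts, medians and sums. The promoters printed, and Sphk2 and Thra, were picked after their values were seen. Alternatives were other pseudocounts, filters and scalings, the groups compared alone, a replicate block, the study's criteria and leaving out each mouse. Groups came from the sample titles, and the treatment label of control mice repeats that of diabetic mice. No 2 files were identical.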

Additional observations from a re-analysis of the deposited data

Results flagged for a closer look

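In groups of 4, a mouse was set apart where its gap to the next mouse, as a share of the range of the group on the log2 scale, exceeded the critical value of Dixon's test, which chance alone does in about 1 of 20 groups. Of 38 such groups (the 10 clock genes and the other clock and output genes called with diabetes, in the 2 diabetic groups), 6 met this. WT diabetic mouse 4 accounted for 4 of them, with an Arntl of 1.25 FPKM, a Per3 of 2.26 FPKM, an Nr1d2 of 17.4 FPKM and a Dbp of 11.3 FPKM, the first below and the others above the rest of its group. The other 2 were Per1 in Cfb-/- diabetic mouse 3 (3.32 FPKM) and Arntl2 in Cfb-/- diabetic mouse 4 (0.267 FPKM), both below the rest of their group. Control groups had 3 mice and were not examined in this way.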

How the results depend on the processing

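Per1 kept its direction in both genotypes and its Cfb-/- call under every alternative run. In WT mice 2 clock genes were called, against 0 after quantile normalization, 1 by the study's criteria (unadjusted p below 0.05 and fold change above 2) and 0 to 4 without 1 mouse each (0 without WT control mouse 2, 1 without WT control mouse 3, 4 without WT diabetic mouse 4). In Cfb-/- mice 1 was called, against 2 (Per1 and Tef) after median-ratio scaling. For Cfb deletion in control mice 0 were called, against 1 (Ciart) by the study's criteria and 0 to 1 without 1 mouse each. Over all genes the study's criteria called 2603 in WT and 2228 in Cfb-/- diabetes, 71 and 174 for deletion in diabetic and control mice, and 264 for the interaction, where the adjusted p called 6879, 5038, 1, 1 and 0. Fold changes near 0 changed sign. After median-ratio scaling and quantile normalization, the WT values were -0.033 and -0.29 for Arntl and -0.021 and -0.20 for Per2, and the Cfb-/- values were -0.024 and -0.037 for Clock, -0.20 and -0.12 for Nr1d2 and -0.065 and -0.27 for Dbp. Without 1 mouse each, WT values ranged from -0.27 to 0.63 for Per2, -0.57 to 0.18 for Per3, -0.37 to 0.38 for Ciart, -0.64 to 0.055 for Nr1d1 and -0.25 to 0.34 for Nr1d2, and Cfb-/- values from -0.19 to 0.11 for Arntl, -0.86 to 0.39 for Per2, -0.14 to 0.033 for Per3, -0.25 to 0.97 for Nr1d1, -0.19 to 0.32 for Nr1d2 and -0.13 to 0.53 for Dbp. The replicate number did not pair the mice (r of same-numbered mice from -0.39 to 0.24), and a replicate block called 3 clock genes in WT mice (Clock, Per1 and Tef, Tef at -0.59) and 1 in Cfb-/- mice, with Cfb-/- values of 0.13 for Arntl, -0.052 for Nr1d2 and -0.054 for Dbp. Bhlhe41, Fbxl21, Por, Sgk1, Errfi1, Atf3 and Rbm3 kept their calls under every alternative run, while Arntl2, Gsk3b, Wee1, Nampt, Fos, Jun, Csnk1d and Csnk1e each lost one under at least 1. Ciart could not be tested with a filter of 1 FPKM. The causes of these changes were not tested. The depth is unknown, and the values of Ciart, Fbxl21, Arntl2, Fosb and, in control mice, Bhlhe41 lie below 1 FPKM.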
